A study of Mus musculus with 12 samples.

Results

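The 34 genes described here belong to the unfolded protein response and to the folding machinery of the endoplasmic reticulum (ER), in Ly6G+ cells of the mouse spleen between birth and early adulthood. They were taken as a list of gene symbols picked for a known function, but with earlier results of these data known. All 34 were found among the 38887 gene identifiers of the table. All 34 also passed the filter on low counts, which left 15494 genes. Neutrophils carry Ly6G on their surface, and these cells are labelled PMN-MDSC, polymorphonuclear myeloid-derived suppressor cells. Cells came from mice aged 2 days, 7 days, 14 days or 6 weeks, with 3 libraries of polyadenylated RNA per age. No genotype, treatment, strain, sex, sorting method or number of pooled mice is given in the labels for any age, and separate mice are not stated for replicate libraries. P-values therefore reflect library-to-library spread, part or all of which may be technical. The study's title concerns a suppressive activity that neutrophils hold for a short time in newborns.

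Proteins that enter the secretory pathway fold in the ER, helped by the Hsp70 chaperone BiP (Hspa5), the Hsp90 chaperone Grp94 (Hsp90b1), the sugar-binding chaperones calreticulin and calnexin, and protein disulphide isomerases. When unfolded protein builds up, the membrane sensors IRE1 (Ern1), PERK (Eif2ak3) and ATF6 start the unfolded protein response. IRE1 splices the mRNA of Xbp1, PERK slows translation while allowing that of Atf4, and ATF6 is cut to release a transcription factor. Their targets include chaperones, proteins of ER-associated degradation (ERAD), which takes misfolded protein out to the proteasome, and genes of amino acid supply and cell death. Neutrophils make most of their granule proteins in the ER while they are still immature, in the bone marrow and, in newborns, also in spleen and liver. Gene counts show neither the splicing of Xbp1 nor the cleavage of ATF6, so activity of the sensors was not measured.

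Library totals ran from 34495767 to 38795913 counts, and counting error mattered for few members. Levels are in CPM (each library's counts on a common scale set by its normalized size), as mean ± SD (n = 3), and differences are log2 fold changes ± standard error (SE) from edgeR's quasi-likelihood test, with p adjusted over all 15494 genes. Neutrophil markers (11 genes, Ly6g and S100a8 among them) summed to between 68500 and 102000 CPM in every library, with 0 of the 11 at 0 counts over the libraries of any age. Of these markers 4 were lower and 2 higher at 2 days than at 6 weeks (median log2 fold change -0.48), 5 lower and 1 higher at 7 days (-0.51), and 1 lower and 1 higher at 14 days (-0.1). Of all genes 19.7% were lower and 20.7% higher at 2 days, 26.6% and 24.5% at 7 days, and 9.26% and 9.68% at 14 days. The part of the neutrophil markers in the members' levels was not tested. A pair of libraries stood apart from the others of their age. Library 2 at 2 days correlated with its partners at 0.971 and 0.98 (Spearman, across genes) against 0.992 for the other pair, and library 1 at 14 days at 0.986 and 0.986 against 0.994. Calls on members that begin or end when either library is left out are given beside the gene. Y-linked transcripts of Ddx3y, Eif2s3y, Kdm5d and Uty summed to between 1816 and 4010 counts at 2 and 7 days and to 0 or 1 at 14 days and 6 weeks. Xist, a transcript of female cells, stood at 158 to 441 CPM at 2 and 7 days and 229 to 508 at 14 days and 6 weeks. The libraries of 2 and 7 days thus hold transcripts of both sexes, and sex cannot be told apart from age across that divide. Cytosolic heat-shock genes (13 genes) summed to between 34200 and 39200 CPM at 7 days and to between 1440 and 2660 CPM at the other ages.

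Most members changed with age, and the predominant pattern was a low level at 2 days. In a joint test of any difference between ages, 29 of the 34 members passed an adjusted p of 0.05, beside 69.2% of all genes tested. Of these 29, 17 had their lowest mean at 2 days and 8 at 7 days, while 25.2% and 35.2% of all genes past the joint test were lowest at those ages. Of the others, 2 were lowest at 14 days (14.6% of all) and 2 at 6 weeks (25%). The highest mean was at 6 weeks for 14 members, at 7 days for 9, at 14 days for 4 and at 2 days for 2, beside 27.5%, 31.5%, 13.9% and 27.1% of all genes past the joint test. The 5 members that did not pass were the ERAD genes Syvn1 and Derl2, the disulphide isomerase P4hb, the translocon subunit Sec61b (adjusted p = 0.0579) and the transcription factor Ddit3 (adjusted p = 0.131). The summed level of all 34 genes was between 2872 and 3177 CPM in the 2-day libraries, 4057 to 4122 at 7 days, 3465 to 4195 at 14 days and 3794 to 3995 at 6 weeks. The 2-day sums lay below those of every other library. Per kilobase of exon, the most abundant members at 6 weeks were Calr (128 ± 7.18 RPKM, which is CPM per kilobase), Hspa5 (111 ± 5.83), P4hb (71.6 ± 11.1), Pdia3 (71.4 ± 5.1) and Hsp90b1 (68.5 ± 3.72), and the ranges of mean ± SD of the last 3 overlap. The least abundant were Trib3 (1.43 ± 0.209) and Derl3 (1.36 ± 0.337). Over the 34 genes the highest age mean was between 1.12 and 6.62 times the lowest.

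**Figure D1:**
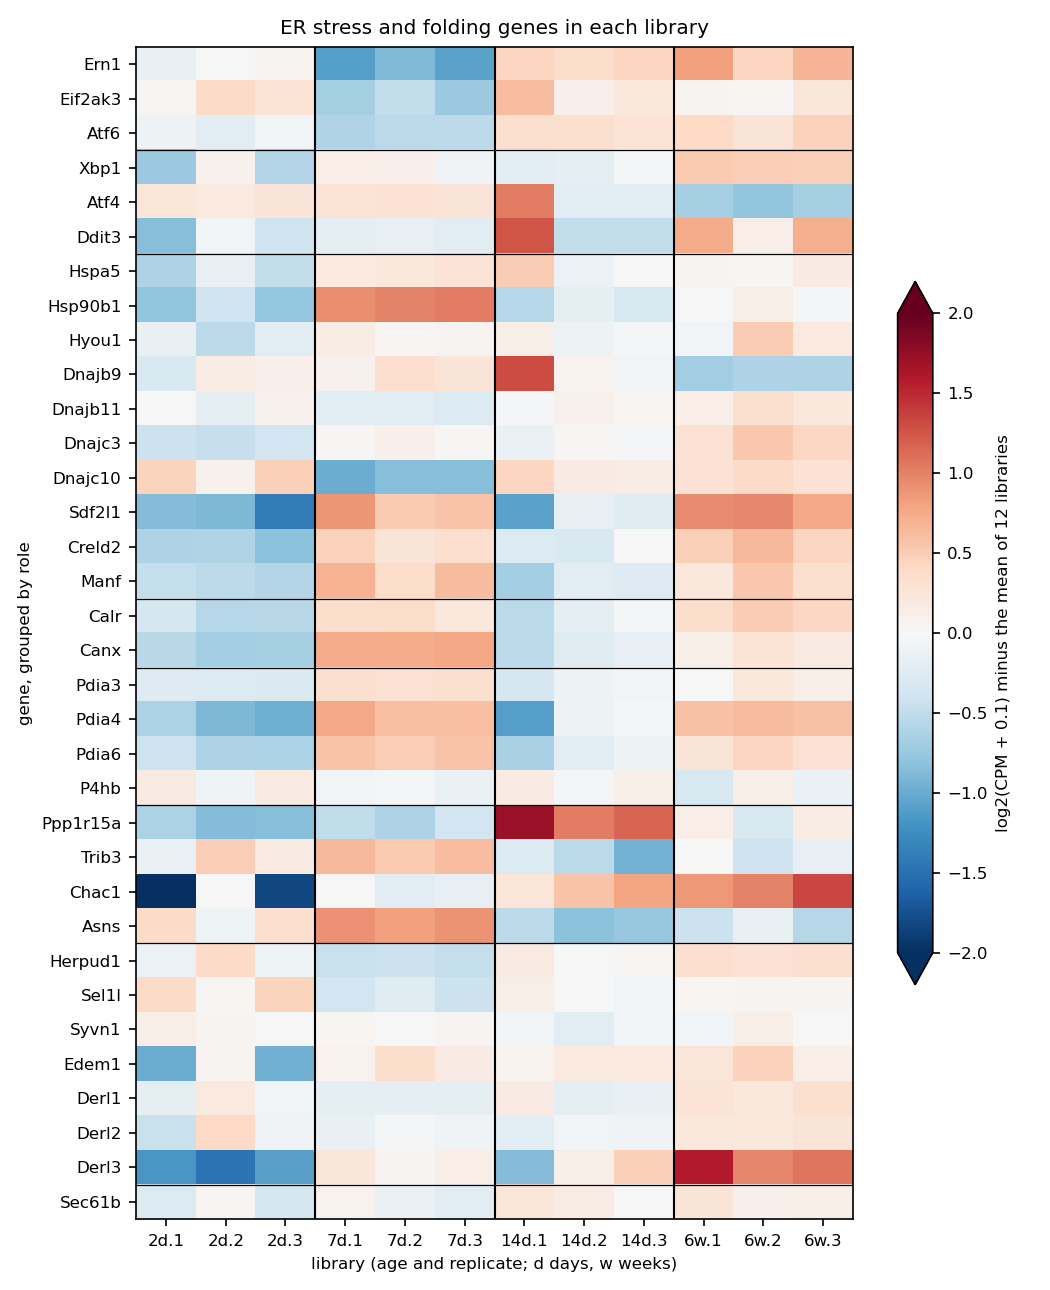
Level of each of the 34 genes (rows, grouped by role) in each of the 12 libraries (columns, named by age and replicate), as log2(CPM + 0.1) minus the gene's mean over the 12 libraries; red is above and blue below that mean. Most chaperone and disulphide isomerase rows are blue in the 2-day columns, and the rows of the sensors Ern1, Eif2ak3 and Atf6 are blue at 7 days.

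At 2 days, 2 members were higher and 20 lower than at 6 weeks, where 20.7% of all genes were higher and 19.7% lower (40.4% in either direction). The lower members included 7 of the 10 chaperones of the Hsp70 and Hsp90 machinery, both lectin chaperones and 3 of the 4 disulphide isomerases. The median log2 fold change was -0.51 over the members and 0.04 over all genes. The largest falls were those of Derl3, an ERAD protein found mainly in secretory cells, of Chac1, a glutathione-degrading enzyme, and of the BiP cofactor Sdf2l1. Atf4 and Asns, which encodes asparagine synthetase, were the 2 members that were higher. Without library 2 at 2 days and library 1 at 14 days, 5 members were higher and 24 lower. Leaving out library 2 at 2 days alone raised the calls over all genes in this comparison from 6263 to 8170.

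At 7 days, 6 members were higher and 12 lower than at 6 weeks, while 24.5% of all genes were higher and 26.6% lower (51% in either direction). All 3 sensors and 4 of the 7 ERAD genes were among the lower members. Hsp90b1, Dnajb9, Canx, Atf4, Trib3 and Asns were the higher ones. With library totals as the only scaling, the median over all genes went from -0.01 to 0.16 and there were 8 members higher and 7 lower, so the balance of directions in this comparison depends on the scaling. At 14 days, 3 members were higher and 10 lower than at 6 weeks, where 9.68% of all genes were higher and 9.26% lower (18.9% in either direction). The 10 included 4 chaperones, both lectin chaperones and 2 disulphide isomerases, and the 3 were Atf4, Dnajb9 and Ppp1r15a. Without the pair of libraries that stood apart, the counts higher and lower were 8 and 15 at 7 days and 3 and 15 at 14 days. With library 2 at 2 days alone left out, the calls over all genes went from 7905 to 9326 at 7 days. At 14 days they went from 2934 to 4685.

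Between the younger ages many folding genes went up and then down. From 2 to 7 days, 14 members rose and 6 fell, beside 48.7% of all genes past the test in either direction (22.9% higher, 25.8% lower). The 14 held 6 of the 10 chaperones, both lectin chaperones and 3 of the 4 disulphide isomerases, and the 6 held all 3 sensors. From 7 to 14 days, 8 members rose and 11 fell (45.9% of all genes in either direction, 24% higher and 21.9% lower). The 3 sensors, Dnajb11, Dnajc10, Ppp1r15a, Herpud1 and Sel1l made up the rise. At 14 days compared with 2 days, 10 members were higher and 2 lower (25.1% of all genes in either direction, 12.8% higher and 12.3% lower). That last pair of counts was the least stable: 1 and 1 in a fit of these 2 ages only, 17 and 5 without library 2 at 2 days and library 1 at 14 days, 6 and 1 without library 3 at 2 days and 4 and 1 without library 3 at 14 days; without library 2 at 14 days the count of lower members was also 1. Without the pair that stood apart, 18 rose and 7 fell from 2 to 7 days and 9 rose and 13 fell from 7 to 14 days. Over all genes, leaving out library 2 at 2 days alone took the calls from 7546 to 8129 for 7 versus 2 days. Those for 14 versus 7 days went from 7108 to 8728, and those for 14 versus 2 days from 3882 to 5833. Comparisons that share an age share its libraries, so their counts are not independent.

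**Figure D2:**
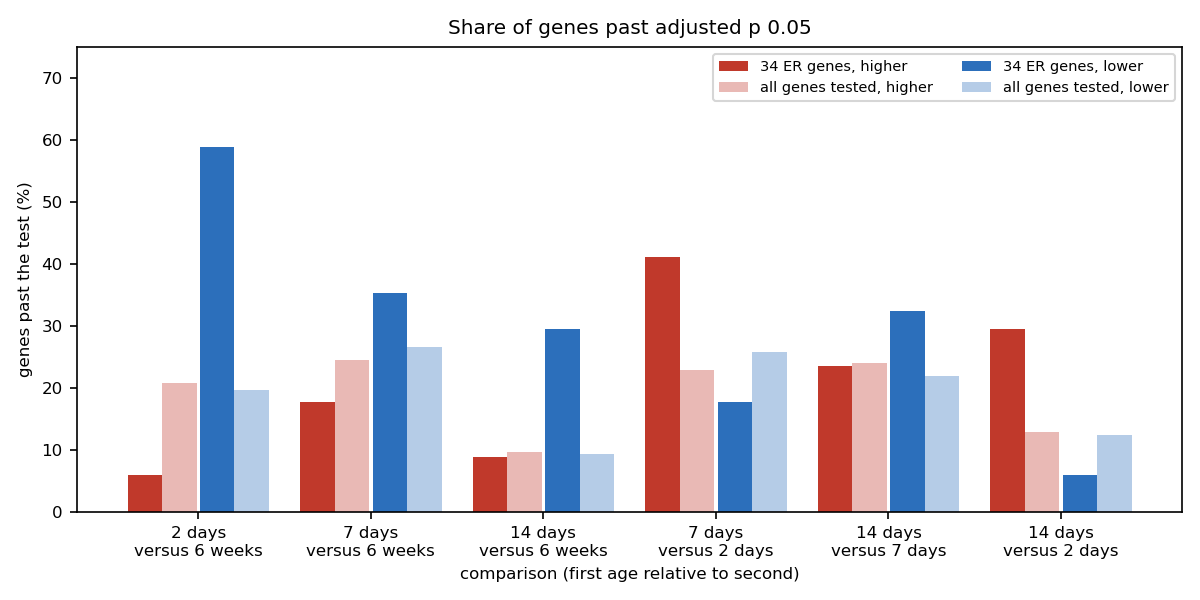
Percent of the 34 ER genes (solid bars) and of all 15494 genes tested (pale bars) past an adjusted p of 0.05, higher in red and lower in blue, for the 6 pairs of ages (first age relative to the second). The solid blue bar for 2 days against 6 weeks stands for 20 of the 34 genes and is the tallest, beside 19.7% of all genes.

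The promoters of several members hold a known motif that was not itself a criterion of the list. Many members are textbook carriers of it, so its shares describe the list and were not tested. The ER stress response element (ERSE), read by ATF6 and XBP1 together with NF-Y, is CCAAT, any 9 bases and then CCACG, searched on both strands. RefSeq windows on GRCm38.p6, from 250 bases before to 50 bases after each annotated start, were at hand for 30 of the 34 members. An exact ERSE lay in the windows of 9 of these 30 (30%) and of 37 of 27025 genes in all (0.137%). With at most 1 mismatch the shares were 50% and 1.72%. The shorter ERSE-II, which is ATTGG, any base and then CCACG, was in 2 members (6.67%, against 0.0444% of genes). The sequences are shown because these 9 genes are the ones compared with the other members below. In each line the capitals are the CCAAT and CCACG parts of the ERSE, printed 5′ to 3′ on the strand where the motif reads in that direction. The flanks are 20 bases on each side, or 5 for Hspa5, whose site with flanks of 20 bases overlaps an annotated GENCODE exon.
Hspa5, chr2:34772020-34772048, + strand: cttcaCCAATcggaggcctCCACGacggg
Calr, chr8:84847055-84847113, + strand: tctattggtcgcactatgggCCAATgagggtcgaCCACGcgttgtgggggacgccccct
Canx, chr11:50325780-50325838, - strand: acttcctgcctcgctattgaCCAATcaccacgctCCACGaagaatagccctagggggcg
Pdia6, chr12:17266471-17266529, + strand: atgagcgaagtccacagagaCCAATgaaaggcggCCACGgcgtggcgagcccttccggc
Dnajc3, chr14:118937807-118937865, + strand: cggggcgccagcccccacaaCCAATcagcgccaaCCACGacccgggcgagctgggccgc
Creld2, chr15:88819500-88819558, - strand: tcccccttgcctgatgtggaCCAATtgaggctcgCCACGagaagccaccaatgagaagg
Derl3, chr10:75893222-75893280, - strand: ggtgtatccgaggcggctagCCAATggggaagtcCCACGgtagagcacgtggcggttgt
Syvn1, chr19:6046512-6046570, + strand: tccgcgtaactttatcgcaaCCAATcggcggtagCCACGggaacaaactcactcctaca
The 2 matches to ERSE-II, with the motif's fixed letters in capitals, were in Herpud1 and Dnajb11, the latter inside an annotated exon.
Herpud1, chr8:94386368-94386396, + strand: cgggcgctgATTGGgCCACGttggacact
Dnajb11, chr16:22857843-22857871, + strand: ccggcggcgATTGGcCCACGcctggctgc

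Hsp90b1 was the only member with 2 exact matches, 1 on each strand. The stretch of 185 bases below is upstream of its annotated first exon and is printed on the strand of the gene, with both elements in capitals. The first reads CCAAT to CCACG, and the second, on the opposite strand, appears as CGTGG followed by ATTGG.
Hsp90b1, chr10:86705510-86705694, - strand: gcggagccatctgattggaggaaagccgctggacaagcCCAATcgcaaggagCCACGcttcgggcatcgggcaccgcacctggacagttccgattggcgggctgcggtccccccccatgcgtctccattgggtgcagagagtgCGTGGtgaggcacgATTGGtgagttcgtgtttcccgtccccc
The first of the matches began 212 bases before the RefSeq start and the second 107 bases before it. In Calr, Canx, Derl3, Pdia6, Dnajc3, Creld2, Syvn1 and Hspa5 the matches began between 44 and 162 bases before the start.

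Members with an exact ERSE moved together in the first week. Of the 9, 8 were lower at 2 days than at 6 weeks (19.7% of all genes tested) and 8 rose from 2 to 7 days (22.9% of all genes). The exception in both comparisons was Syvn1, an ERAD ubiquitin ligase, with 0.04 ± 0.09 (adjusted p = 0.792) and -0.03 ± 0.09 (adjusted p = 0.794). Their median log2 fold changes were -0.85 and 1.04. Among the 21 members whose window held no exact ERSE, 9 were lower and 2 higher at 2 days than at 6 weeks, and 5 rose and 5 fell from 2 to 7 days, with medians of -0.25 and 0.22. Some of these took the same course as the genes with the motif, namely Sdf2l1 (-1.95 and 1.72), Pdia4 (-1.43 and 1.49), Edem1 (-0.83 and 0.74) and Pdia3 (-0.4 and 0.6). So did Manf, which had no window (-0.88 and 1.1). The split used exact matches only, and with at most 1 mismatch 15 of the 30 members hold the motif. Outside the list, 20 genes with an exact ERSE could be matched by symbol to the count table, and 9 of them were expressed enough to be tested. Of these 9, 3 were higher and 2 lower at 2 days than at 6 weeks, and 2 rose and 4 fell from 2 to 7 days. The members were picked for a known function, and many are textbook carriers of this motif, so these counts describe the list and no test was made of them.

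**Figure D3:**
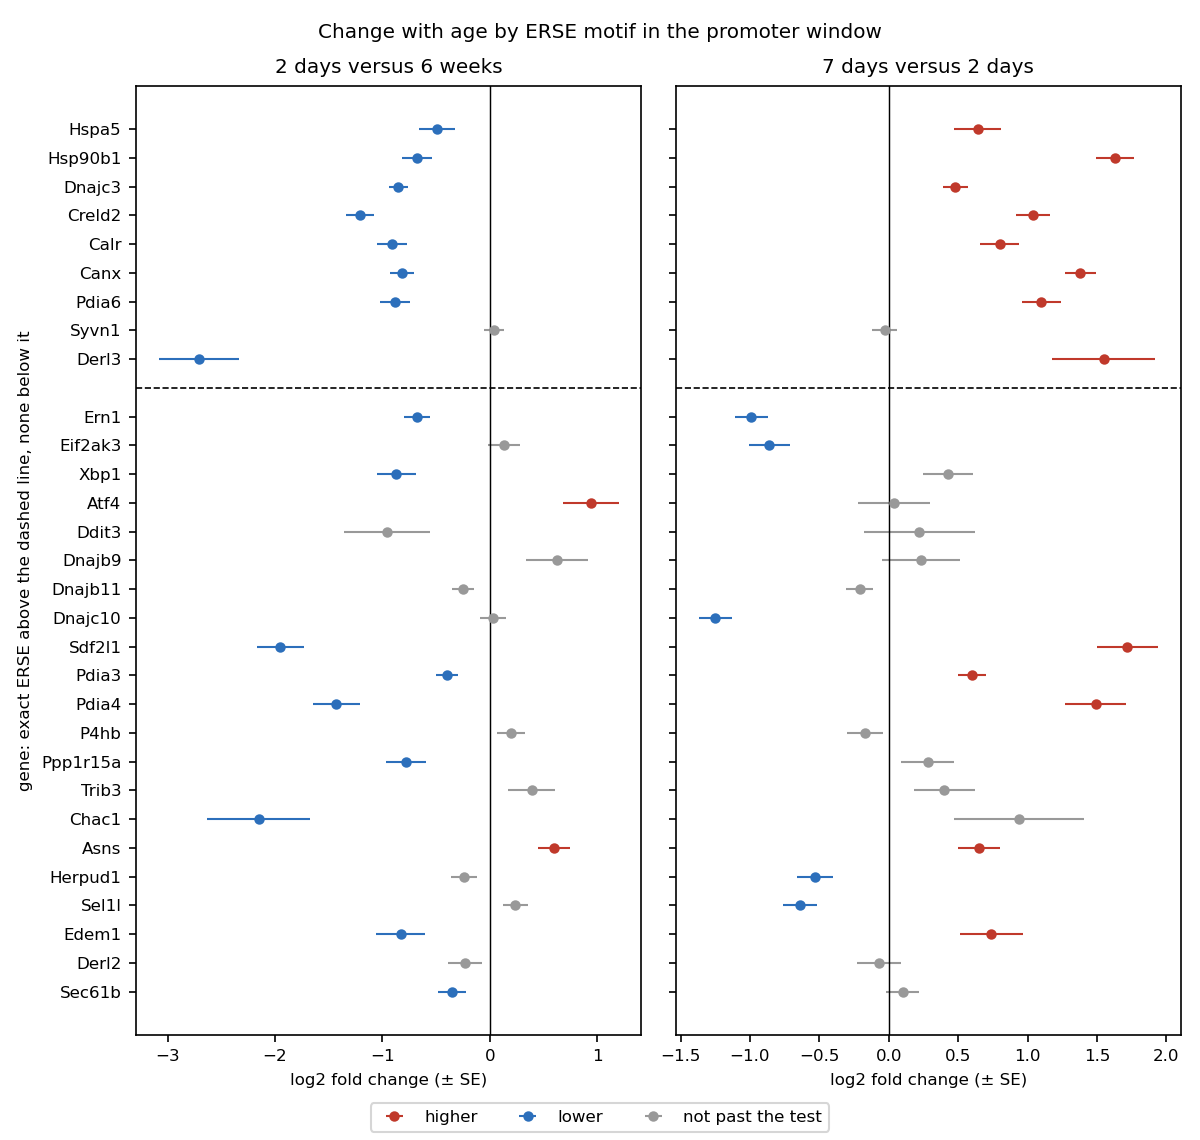
Log2 fold change ± SE (edgeR) of the 30 members with a promoter window, for 2 days versus 6 weeks (left) and 7 days versus 2 days (right), with the 9 genes that hold an exact ERSE above the dashed line and the other 21 below it; red is higher, blue lower and grey not past the test. Above the line 8 of 9 points are blue on the left and 8 of 9 are red on the right.

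A second motif belongs to the other arm. The CARE or amino acid response element, TGATGNAA on either strand, is read by ATF4 with a C/EBP partner. It was found in the windows of 4 members (13.3%, against 4.51% of all genes). With at most 1 mismatch it was in 8 members (26.7%, against 54.4%), so the looser match was less frequent in the list than over all genes. The 4 exact matches are shown with the fixed letters in capitals because 3 of them, in Chac1, Trib3 and Asns, are in genes classed here as integrated stress response targets.
Chac1, chr2:119351040-119351065, - strand: tggcaggagTGATGcAAcggcaggga
Trib3, chr2:152344030-152344055, + strand: ccgcccggcTGATGtAAacctgagct
Asns, chr6:7693216-7693241, - strand: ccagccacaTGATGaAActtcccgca
Herpud1, chr8:94386308-94386333, - strand: ggtgcgggcTGATGcAAcccgccgtg
The printed stretches of Trib3 and Asns overlap annotated exons. For Trib3 the overlap is in the flank only, since the annotated gene ends at position 152344032, outside the motif. These 4 genes did not share 1 course with age: from 7 to 14 days Trib3 (-1.19) and Asns (-1.57) fell, Herpud1 rose (0.52), and Chac1 stood at 0.68 ± 0.46 (adjusted p = 0.242). Exact matches to the UPRE (TGACGTGG) and to the heat-shock element (GAA, TTC and GAA, each separated by any 2 bases) were found in 0 members, against 0.714% and 0.662% of all genes.

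The 3 sensors had their lowest level at 7 days. Ern1, which encodes IRE1, stood at 29.9, 33.6 and 34.5 CPM at 2 days, 15.5, 18 and 15.8 at 7 days, 44.9, 42.7 and 44.7 at 14 days and 58.8, 44.9 and 53.3 at 6 weeks. All 7-day libraries lay below all others, the 2-day libraries came next, and those of 14 days and 6 weeks overlapped. The log2 fold change was -1.67 ± 0.12 (adjusted p = 1.02e-06) for 7 days versus 6 weeks and -0.68 ± 0.12 (adjusted p = 0.000599) for 2 days versus 6 weeks. Ern1 then rose from 7 to 14 days by 1.43 ± 0.12 (adjusted p = 4.61e-06). Its higher level at 14 than at 2 days (0.43 ± 0.12, adjusted p = 0.0157) did not pass without library 3 at 14 days (adjusted p = 0.0513) or in a fit of these 2 ages alone (adjusted p = 0.0545).

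Eif2ak3, which encodes the kinase PERK, was measured at 97.8, 126 and 116 CPM at 2 days, 60.9, 68.1 and 57.6 at 7 days, 147, 103 and 111 at 14 days and 100, 97.9 and 112 at 6 weeks. Again the 7-day libraries were the lowest, and the other ages overlapped one another. It was lower at 7 days than at 2 days (-0.86 ± 0.15, adjusted p = 0.000478), 14 days and 6 weeks (-0.73 ± 0.15, adjusted p = 0.00131). Neither 2 nor 14 days differed from 6 weeks past the threshold (0.13 and 0.21). Atf6, the membrane-bound transcription factor, had 53.6, 49.4 and 55.1 CPM at 2 days, 37.9, 39.4 and 39.7 at 7 days, 71.6, 71.6 and 69.2 at 14 days and 75.8, 68.7 and 79.4 at 6 weeks. The 4 ages fell in the order 7 days, 2 days, then 14 days and 6 weeks, and the last 2 overlapped. It was -0.94 ± 0.09 (adjusted p = 7.7e-06) at 7 days and -0.5 ± 0.09 (adjusted p = 0.000861) at 2 days relative to 6 weeks. The step down from 2 to 7 days (-0.44 ± 0.09, adjusted p = 0.00181) was -0.29 with an adjusted p of 0.0771 when libraries were scaled by their totals alone, and the difference of 14 from 2 days (0.42 ± 0.09, adjusted p = 0.00428) had an adjusted p of 0.0514 in a fit of these 2 ages. Per kilobase of exon, PERK mRNA was the most abundant of the 3 at 6 weeks, at 17.2 ± 1.29 RPKM against 8.09 ± 0.588 for Atf6 and 6.4 ± 0.859 for Ern1.

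None of the 3 transcription factors of the response had its lowest mean at 7 days. Xbp1, the target of IRE1 and a factor of chaperone and secretory genes, stood at 85.1, 151 and 94.8 CPM at 2 days, 156, 153 and 136 at 7 days, 122, 125 and 140 at 14 days and 205, 201 and 197 at 6 weeks. Levels at 6 weeks were above those of every other library. Xbp1 was lower at 2 days (-0.87 ± 0.18, adjusted p = 0.0021) and at 14 days (-0.64 ± 0.18, adjusted p = 0.0245) than at 6 weeks. The 14-day call ended when library 1 or 2 at 14 days or any one library at 6 weeks was left out (adjusted p from 0.0608 to 0.0751). Library 2 at 2 days was above its partners, and without it Xbp1 rose from 2 to 7 days by 0.74 (adjusted p = 9.48e-05), where the value with all libraries was 0.43 ± 0.18 (adjusted p = 0.0632). At 7 days relative to 6 weeks it was -0.44 ± 0.18 (adjusted p = 0.0535), and it passed without that library (-0.41, 0.00168), without library 1 at 2 days (0.0302), with DESeq2 size factors (0.0489), with DESeq2 (0.0354) and in a fit of the 2 ages (0.00176). Also without library 2 at 2 days, Xbp1 was higher at 14 than at 2 days (0.52, 0.0018, against 0.22 with it) and lower at 14 than at 7 days (-0.22, 0.0489, against -0.2).

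Atf4, the factor translated when PERK or a related kinase is active, was lowest at 6 weeks. It was measured at 278, 269 and 280 CPM at 2 days, 284, 287 and 280 at 7 days, 474, 200 and 200 at 14 days and 148, 135 and 148 at 6 weeks. Every younger library was above every 6-week library, and library 1 at 14 days was far above its partners. Relative to 6 weeks, Atf4 was higher at 2 days (0.94 ± 0.26, adjusted p = 0.013), at 7 days (0.98 ± 0.26, adjusted p = 0.00794) and at 14 days (1.02 ± 0.26, adjusted p = 0.0182). The 14-day value was 0.48 (adjusted p = 0.0087) without library 1 at 14 days, and with the 3 libraries of 14 days its adjusted p was 0.0575 to 0.0622 when any one 6-week library was left out. Without library 1 at 14 days Atf4 was lower at 14 days than at 7 days (-0.5, adjusted p = 0.00293) and than at 2 days (-0.46, adjusted p = 0.0072), whereas with it these values were 0.04 and 0.08.

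Ddit3, which encodes the cell death factor CHOP, is a target of ATF4. Its levels were 14.4, 24.9 and 19.7 CPM at 2 days, 22.8, 23.3 and 22.5 at 7 days, 62.1, 18.4 and 18.5 at 14 days and 43.3, 28.4 and 43 at 6 weeks. The 3 libraries of 6 weeks lay above those of 2 and 7 days, and at 14 days library 1 was above them while its partners were below. With all libraries no pair of ages passed the test for Ddit3, with -0.96 ± 0.4 (adjusted p = 0.0732) at 2 days and -0.74 ± 0.4 (adjusted p = 0.136) at 7 days relative to 6 weeks. The first of these passed with library totals alone (adjusted p = 0.0443), with no filter on low counts (0.0354), with DESeq2 (0.037) and in a fit of the 2 ages only (0.0153), in which the second passed too (0.00225). Without library 1 at 14 days Ddit3 was lower than at 6 weeks at 2 days (-0.96, adjusted p = 0.00247), at 7 days (-0.74, 0.00832) and at 14 days (-1.05, 0.0103, against -0.21 with it), and its value at 14 versus 7 days went from 0.53 to -0.31 (0.294). Without library 2 at 14 days the 2-day value passed as well (0.0468). Ddit3 overlaps Mars on the opposite strand, and reads of both genes cannot be told apart where the counting ignored strand.

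**Figure D4:**
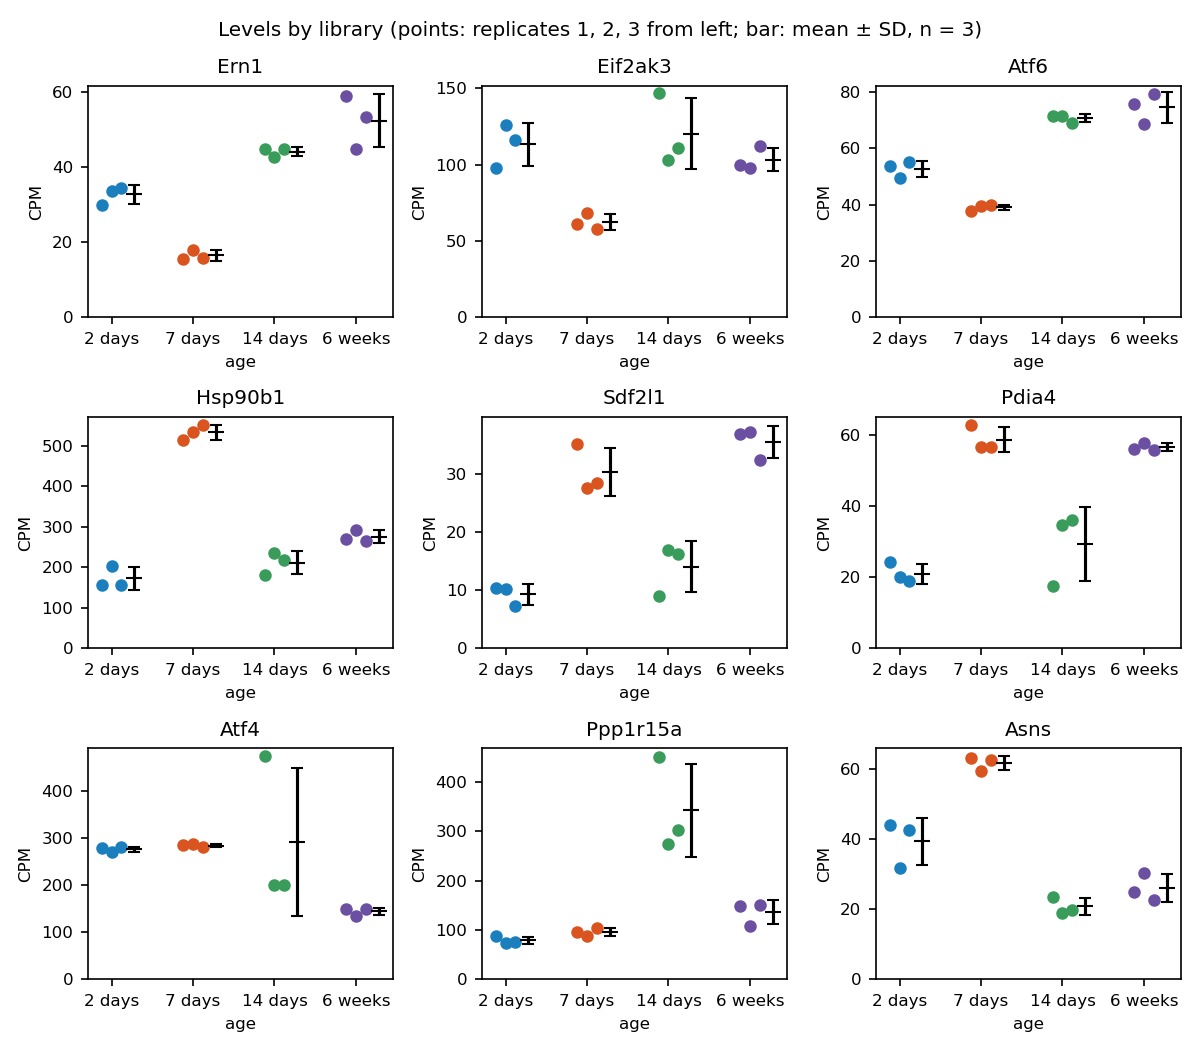
CPM of 9 members in each library (points, replicates 1, 2 and 3 of each age from left to right) with the mean ± SD of 3 libraries (black bars); each panel has its own axis from 0. The sensors Ern1, Eif2ak3 and Atf6 are lowest at 7 days while Hsp90b1 and Asns are highest there, and library 1 at 14 days lies above its partners for Atf4 and Ppp1r15a and below them for Sdf2l1 and Pdia4.

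Among the Hsp70 and Hsp90 machinery of the ER, 7 of 10 genes were lower at 2 days than at 6 weeks (19.7% of all genes). Hspa5, whose product BiP holds unfolded chains and keeps the sensors inactive, had 289, 398 and 316 CPM at 2 days, 510, 518 and 538 at 7 days, 635, 409 and 441 at 14 days and 461, 451 and 498 at 6 weeks. The 2-day libraries were all below those of the other ages, library 2 among them by the least, and library 1 at 14 days was the highest of all. Hspa5 rose from 2 to 7 days by 0.64 ± 0.17 (adjusted p = 0.00778) and was -0.49 ± 0.17 (adjusted p = 0.0352) at 2 days relative to 6 weeks. The second call was lost without library 1 or 3 at 2 days or any one library at 6 weeks (adjusted p from 0.0612 to 0.107) and with replicate number as a block (0.0632). At 14 days it was higher than at 2 days (0.57 ± 0.17, adjusted p = 0.0277), and this was 0.35 (adjusted p = 0.0982) without library 1 at 14 days. The call was also lost without library 1 or 3 at 2 days (0.0569 and 0.0713), with the block (0.0588) and in a fit of the 2 ages (0.134).

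Hsp90b1, which encodes Grp94, the chaperone of integrins and Toll-like receptors, had a peak at 7 days. Its levels were 156, 204 and 157 CPM at 2 days, 515, 534 and 551 at 7 days, 181, 236 and 217 at 14 days and 270, 293 and 265 at 6 weeks. All 7-day libraries were above all others, and the 2-day and 14-day libraries overlapped. It rose by 1.63 ± 0.14 (adjusted p = 3.33e-06) from 2 to 7 days and fell by 1.34 ± 0.14 (log2, adjusted p = 1.89e-05) from 7 to 14 days. Relative to 6 weeks it was 0.95 ± 0.14 (adjusted p = 0.000128) at 7 days and -0.68 ± 0.14 (adjusted p = 0.00176) at 2 days. Without library 2 at 2 days it was also higher at 14 than at 2 days (0.44, adjusted p = 0.0112, against 0.29 with it) and lower at 14 days than at 6 weeks (-0.37, 0.0161, against -0.38). At 7 days Hsp90b1 reached 132 ± 4.43 RPKM, beside 123 ± 3.35 for Hspa5 and 118 ± 6.79 for Calr; the ranges of mean ± SD of Hspa5 and Calr overlap. The cytosolic heat-shock genes peaked at the same age: 12 of 13 were higher than at 6 weeks (24.5% of all genes) and 13 of 13 higher than at 2 days (22.9% of all genes). Among them Hspa1a had 11800 ± 1390 CPM at 7 days against 88.3 ± 22.4 at 6 weeks. The part of the heat-shock genes in the 7-day levels of the ER genes was not tested.

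The cofactors of BiP divided into several courses. Sdf2l1, a stress-induced partner of BiP, stood at 10.4, 10.2 and 7.2 CPM at 2 days, 35.2, 27.6 and 28.5 at 7 days, 9.02, 17 and 16.2 at 14 days and 37, 37.4 and 32.5 at 6 weeks. Libraries of 2 and 14 days lay below all those of 7 days and 6 weeks, and library 1 at 14 days was as low as the 2-day ones. It was -1.95 ± 0.22 (adjusted p = 3.23e-05) at 2 days and -1.34 ± 0.22 (adjusted p = 0.00145) at 14 days relative to 6 weeks, and rose from 2 to 7 days by 1.72 ± 0.22 (adjusted p = 7.13e-05). At 14 versus 2 days it was 0.61 ± 0.22 (adjusted p = 0.063), and it passed without library 1 at 14 days (0.85, 0.00366) or library 2 at 2 days (0.69, 0.0497). Creld2 and Manf, small ER proteins induced by stress, were likewise lowest at 2 days, with means of 10.8 ± 0.89 and 22.6 ± 0.882 CPM against 24.9 ± 1.95 and 41.8 ± 5.02 at 6 weeks. Both were lower at 2 days (-1.21 and -0.88) and 14 days (-0.71 and -0.74) than at 6 weeks, and both rose from 2 to 7 days (1.04 and 1.1). Manf overlaps Dcaf1 and Rbm15b, so its reads are uncertain to that extent.

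Dnajc10, a disulphide reductase that hands misfolded proteins to ERAD, was lowest at 7 days. Its levels were 47.5, 37 and 48.3 CPM at 2 days, 17.4, 19.2 and 19.2 at 7 days, 47, 39 and 38.6 at 14 days and 42.7, 45.2 and 42.6 at 6 weeks. The 7-day libraries stood alone, at less than the lowest library of any other age, and the other ages overlapped. The log2 fold change was -1.22 ± 0.12 (adjusted p = 1.09e-05) for 7 days versus 6 weeks, -1.25 for 7 versus 2 days and 1.16 for 14 versus 7 days.

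Dnajb9, a cochaperone that represses IRE1, was measured at 57.5, 78.6 and 75.8 CPM at 2 days, 75, 89.5 and 84.4 at 7 days, 175, 74.1 and 68.3 at 14 days and 43.8, 46.3 and 46.4 at 6 weeks. Every younger library was above the 6-week ones. It was higher at 14 days (1.22 ± 0.29, adjusted p = 0.012) and 7 days (0.86 ± 0.29, adjusted p = 0.0234) than at 6 weeks, while the 2-day value was 0.63 ± 0.29 (adjusted p = 0.0958). Without library 1 at 14 days the first was 0.65 (adjusted p = 0.00997), and the 2-day value passed (0.63, 0.002), as it did with library totals alone (0.64, 0.0497) and in a fit of the 2 ages (0.63, 0.01). The 7-day call was lost without library 2 at 7 days or any one library at 6 weeks (adjusted p from 0.0561 to 0.0682). Dnajc3, an inhibitor of PERK, rose from 41.4 ± 1.1 CPM at 2 days to 74.6 ± 6.19 at 6 weeks and was lower at all 3 younger ages (-0.85, -0.36 and -0.45); the calls at 7 and 14 days were lost with library totals alone (adjusted p = 0.253 and 0.0732). Hyou1, a nucleotide exchange factor of BiP, was lower at 2 days than at 6 weeks (-0.52 ± 0.14, adjusted p = 0.0121), a call lost with library totals alone (0.055), in a fit of the 2 ages (0.0605) and without library 2 at 6 weeks (-0.36, 0.058). Its value at 7 versus 2 days (0.37 ± 0.14, adjusted p = 0.0507) passed without library 1 at 14 days (0.0497) and in 11 of the 20 other settings. Dnajb11, a BiP cochaperone, was lower at 7 days than at 6 weeks (-0.46 ± 0.1, adjusted p = 0.00188) but not with library totals alone (-0.28, adjusted p = 0.126). Its rise from 7 to 14 days (0.27 ± 0.1, adjusted p = 0.0379) was lost without any one of 8 libraries (adjusted p from 0.0604 to 0.189) and with replicate number as a block (0.0665). The rise was also lost with DESeq2 size factors (0.0536), library totals alone (0.353), no filter (0.166) and the stricter filter (0.0747). The value of Dnajb11 at 7 versus 2 days (-0.21) passed only without library 2 at 2 days (-0.26, 0.0216), alone or together with library 1 at 14 days.

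Both lectin chaperones, which retain glycoproteins until they are folded, were low at 2 and 14 days. Calr ranged over 186 to 216 CPM at 2 days, 319 to 354 at 7 days, 189 to 272 at 14 days and 350 to 391 at 6 weeks. Canx ranged over 87.3 to 95, 232 to 237, 97.2 to 124 and 151 to 168 CPM at these ages. For Calr the libraries of 2 and 14 days overlapped, as did those of 7 days and 6 weeks. For Canx no 2 ages overlapped, and the order was 2 days, 14 days, 6 weeks, 7 days. Canx was -0.82 ± 0.11 (adjusted p = 9.12e-05) at 2 days and 0.56 ± 0.11 (adjusted p = 0.00105) at 7 days relative to 6 weeks. Calr was -0.91 ± 0.14 (adjusted p = 0.000244) at 2 days and -0.65 ± 0.14 (adjusted p = 0.006) at 14 days. The lower level of Canx at 14 days than at 6 weeks (-0.49) was lost with library totals alone (adjusted p = 0.0841), and its higher level at 14 than at 2 days (0.33 ± 0.11, adjusted p = 0.041) was lost in 12 of the 21 other settings. Without library 1 at 14 days Calr was also higher at 14 than at 2 days (0.4, adjusted p = 0.0318, against 0.26 with it).

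Of the 4 disulphide isomerases, which form and rearrange disulphide bonds, Pdia3, Pdia4 and Pdia6 were lower at 2 days than at 6 weeks and rose from 2 to 7 days. Pdia4 had 24.1, 19.9 and 18.8 CPM at 2 days, 62.8, 56.7 and 56.7 at 7 days, 17.4, 34.6 and 36.1 at 14 days and 56.2, 57.8 and 55.8 at 6 weeks. Libraries of 7 days and 6 weeks overlapped and lay above all those of 2 and 14 days, and library 1 at 14 days was the lowest of the 12. It was -1.43 ± 0.22 (adjusted p = 0.000246) at 2 days and -0.95 ± 0.21 (adjusted p = 0.00909) at 14 days relative to 6 weeks, and 1.49 ± 0.22 (adjusted p = 0.000155) at 7 relative to 2 days. Without library 1 at 14 days Pdia4 was also higher at 14 than at 2 days (0.76, adjusted p = 0.000757), against 0.49 ± 0.21 (adjusted p = 0.115) with it. Pdia6 rose from 52.6 ± 4.75 CPM at 2 days to 113 ± 3.64 at 7 days (1.1) and Pdia3, the partner of the lectin chaperones, from 171 ± 2.58 to 258 ± 1.27 (0.6). Both were lower at 2 days than at 6 weeks (-0.88 and -0.4), the latter not with library totals alone (-0.37, adjusted p = 0.051). Without library 1 at 14 days Pdia6 was higher at 14 than at 2 days (0.39, 0.0225). Without library 2 at 2 days Pdia3 was higher at 7 days (0.23, 0.048) and lower at 14 days (-0.26, 0.0482) than at 6 weeks. With all libraries none of these 3 passed. P4hb, the most abundant isomerase per length at 2 days with 82.2 ± 8.91 RPKM, was 0.2 ± 0.13 (adjusted p = 0.24) there relative to 6 weeks and passed in no pair of ages, though this value passed without the pair of libraries that stood apart (0.29, 0.046).

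**Figure D5:**
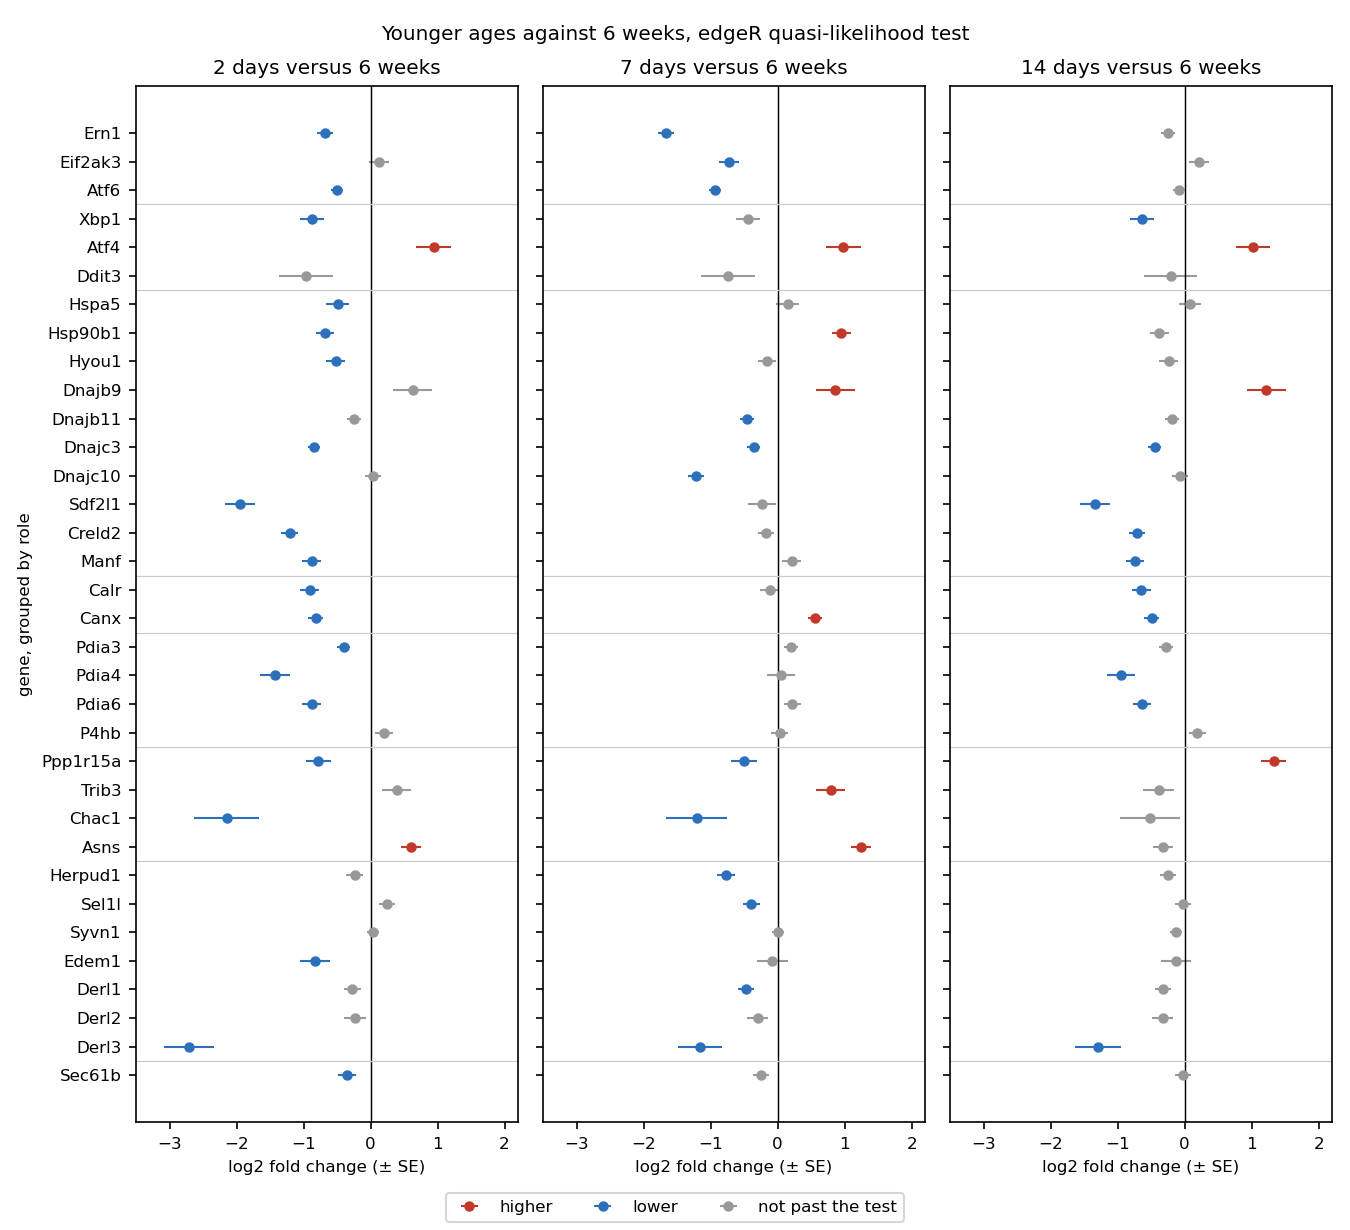
Log2 fold change ± SE (edgeR quasi-likelihood test) of each of the 34 genes at 2, 7 and 14 days relative to 6 weeks, grouped by role; red is higher, blue lower and grey not past an adjusted p of 0.05. At 2 days 20 of the points are blue and 2 are red, and the points of the 3 sensors lie farther left at 7 days than at 2 or 14 days, with Ern1 at -1.67.

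The 4 targets of the integrated stress response did not share a course with age. Ppp1r15a, which encodes GADD34, the phosphatase subunit that ends the translational block, stood at 87.3, 74.2 and 75.1 CPM at 2 days, 94.8, 87.9 and 104 at 7 days, 450, 274 and 303 at 14 days and 149, 108 and 150 at 6 weeks. All 14-day libraries were above all others, the 2-day libraries were the lowest, those of 7 days came next, and no 2 ages overlapped. It was 1.33 ± 0.19 (adjusted p = 0.000585) at 14 days relative to 6 weeks and 1.84 ± 0.19 (adjusted p = 2.05e-05) relative to 7 days. It was lower at 2 days than at 6 weeks (-0.78 ± 0.19, adjusted p = 0.00541). Its lower value at 7 days (-0.5 ± 0.19, adjusted p = 0.0385) was lost with library totals alone (-0.32, adjusted p = 0.158) and without any of 7 single libraries. Beside these levels, 10 immediate early genes (Fos and Egr1 among them) summed to between 4350 and 4840 CPM at 7 days, 10700 to 14700 at 6 weeks, 18000 to 21400 at 14 days and 18600 to 29100 at 2 days. Their part in the course of Ppp1r15a was not tested.

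Asns, which makes asparagine, peaked at 7 days, with 44, 31.7 and 42.5 CPM at 2 days, 63.3, 59.6 and 62.6 at 7 days, 23.5, 19 and 19.8 at 14 days and 25, 30.4 and 22.6 at 6 weeks. The 7-day libraries were above all others, the 2-day libraries next, and those of 14 days and 6 weeks overlapped. It was 1.25 ± 0.15 (adjusted p = 3.25e-05) at 7 days and 0.6 ± 0.15 (adjusted p = 0.00618) at 2 days relative to 6 weeks, and fell by 1.57 on the log2 scale from 7 to 14 days (adjusted p = 1.12e-05). Trib3, a pseudokinase that feeds back on ATF4, was weak, at 3.12, 4.91 and 3.92 CPM at 2 days, 5.44, 4.98 and 5.33 at 7 days, 2.83, 2.34 and 1.75 at 14 days and 3.46, 2.57 and 3.06 at 6 weeks. Its 7-day libraries were above all others. It was higher at 7 than at 2 days without library 2 at 2 days (0.6, adjusted p = 0.0359, against 0.4 ± 0.22, adjusted p = 0.148 with it). Trib3 was 0.79 ± 0.22 (adjusted p = 0.00979) at 7 days relative to 6 weeks and -1.19 ± 0.22 (adjusted p = 0.00114) at 14 relative to 7 days. Its lower level at 14 than at 2 days (-0.78 ± 0.23, adjusted p = 0.0231) was lost without library 3 at 2 days or library 2 or 3 at 14 days (adjusted p from 0.0643 to 0.1) and in a fit of the 2 ages (0.124).

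Chac1 was lowest at 2 days and highest at 6 weeks. It was measured at 1.99, 12.4 and 3.45 CPM at 2 days, 12.3, 10.7 and 11 at 7 days, 14.6, 18.5 and 21.5 at 14 days and 22.6, 24.6 and 31.3 at 6 weeks. Libraries of 6 weeks were above all others, and at 2 days library 2 was far above its partners and just above the 7-day libraries. The value at 2 days relative to 6 weeks was -2.15 ± 0.48 (adjusted p = 0.00367), and without library 2 at 2 days it was -3.26 (adjusted p = 2.05e-06). At 7 days it was -1.21 ± 0.46 (adjusted p = 0.0444), a call lost with library totals alone (adjusted p = 0.0581), with replicate number as a block (-1.18) and without any one of 8 libraries (0.0553 to 0.125). The difference of 14 from 2 days was 1.63 ± 0.48 (adjusted p = 0.0253) with all libraries and 2.75 (1.37e-05) without library 2 at 2 days; it was lost without library 3 at 2 days or library 2 or 3 at 14 days (0.0505 to 0.0913) and in a fit of the 2 ages (0.119). From 2 to 7 days the value was 0.94 ± 0.47 (adjusted p = 0.118), and 2.08 (4.05e-05) without library 2 at 2 days. Without that library the rise from 7 to 14 days also passed (0.67, 0.0123, against 0.68 with it).

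Within ERAD, Herpud1, Sel1l, Derl1 and Derl3 were lower at 7 days than at 6 weeks, and Edem1 and Derl3 were lower at 2 days. Other ERAD calls at 2 days appeared when library 2 of that age was left out: without it Herpud1 (-0.41, adjusted p = 0.00137), Derl1 (-0.38, 0.0122) and Derl2 (-0.47, 0.0042) were also lower than at 6 weeks and Sel1l was higher (0.37, 0.00373), where with it these values were -0.24, -0.27, -0.23 and 0.24. With library totals alone Herpud1 (0.0347) and Derl1 (0.0171) passed as well. Without the same library Herpud1 (-0.24, 0.0279), Derl1 (-0.31, 0.0303) and Derl2 (-0.32, 0.0283) were lower at 14 days than at 6 weeks, Derl2 was lower at 7 days (-0.27, 0.0305), and Sel1l was lower at 14 than at 2 days (-0.38, 0.00471). Herpud1, an organizer of the complex, was lower at 7 days than at 6 weeks (-0.77 ± 0.13, adjusted p = 0.000332) and 2 days (-0.53; -0.33, adjusted p = 0.00467, without library 2 at 2 days). Sel1l, the scaffold of the ubiquitin ligase, fell from 120 ± 18.2 to 77.4 ± 5.37 CPM between 2 and 7 days (-0.64 ± 0.12, adjusted p = 0.000872). Its lower value at 7 days than at 6 weeks (-0.39 ± 0.12, adjusted p = 0.0142) was lost with library totals alone (-0.22, 0.253) and without library 1 or 3 at 7 days (0.0771 and 0.098). The rise of Sel1l from 7 to 14 days (0.37 ± 0.12, adjusted p = 0.0222) was lost with totals alone (0.173), with no filter (0.0644) and without library 1 or 3 at 7 days or 1 or 2 at 14 days (0.0652 to 0.13). Derl1, a channel subunit, was lower at 7 days than at 6 weeks (-0.47 ± 0.12, adjusted p = 0.00661), and without library 1 at 14 days it was lower at 14 days as well (-0.43, 0.0355). With all libraries Derl2, which overlaps Mis12 on the other strand, passed in no pair of ages, nor did Syvn1, which overlaps Mrpl49.

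Edem1, which marks glycoproteins for disposal, ranged over 107 to 221 CPM at 2 days, 223 to 272 at 7 days, 224 to 244 at 14 days and 234 to 291 at 6 weeks. The top of the 2-day range was library 2, and its partners had 107 and 109 CPM. Edem1 was -0.83 ± 0.23 (adjusted p = 0.0137) at 2 days relative to 6 weeks, or -1.25 (adjusted p = 7.7e-06) without that library; the call was lost without library 2 at 6 weeks (-0.74, 0.0512). From 2 to 7 days it was 0.74 ± 0.23 (adjusted p = 0.0194), or 1.2 (1.03e-05) without library 2 at 2 days; the call was lost without library 2 at 7 days (0.0638) and in a fit of the 2 ages (0.0511). At 14 relative to 2 days it was 0.7 ± 0.23 (adjusted p = 0.0442), or 1.14 (3.18e-05) without that library, and the call was lost without any one of 9 other libraries (0.0552 to 0.125).

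Derl3 was the weakest member and had the largest fall at 2 days. Its levels were 0.434, 0.329 and 0.466 CPM at 2 days, 1.3, 1.14 and 1.21 at 7 days, 0.554, 1.2 and 1.56 at 14 days and 3.48, 2.25 and 2.41 at 6 weeks. All 2-day libraries were below all others and all 6-week libraries above them, and the 14-day and 7-day libraries overlapped. It was -2.71 ± 0.37 (adjusted p = 0.000118) at 2 days relative to 6 weeks. At 7 and 14 days it was -1.16 ± 0.33 (adjusted p = 0.0118) and -1.29 ± 0.34 (adjusted p = 0.0193). Both of the latter were lost without library 1 at 6 weeks (-0.94, adjusted p = 0.0588, and -1.07, 0.0876), and the 14-day one also without library 2 at 14 days (0.0525) and with library totals alone (0.0508). It was higher at 7 than at 2 days (1.55 ± 0.37, adjusted p = 0.00437) and at 14 than at 2 days (1.42 ± 0.37, adjusted p = 0.0146), the latter lost without library 3 at 14 days (1.09, 0.0722) and in a fit of the 2 ages (0.085). Sec61b, the translocon subunit, was -0.35 ± 0.13 (adjusted p = 0.0408) at 2 days relative to 6 weeks, a call lost without any one of 6 libraries (0.0535 to 0.129) and in a fit of the 2 ages (0.0667). Without library 2 at 2 days it was higher at 14 than at 2 days (0.46, 0.00767, against 0.33 with it).

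Markers of other cells moved with age as well. Plasma cells, the secretory B cells in which XBP1 and its targets are strongly expressed, had 8 of 10 tested markers lower at 2 days than at 6 weeks and 0 higher (19.7% and 20.7% of all genes). Of the 12 listed, 11 were found, and their sum was between 382 and 574 CPM at 2 days, 940 and 1030 at 7 days, 438 and 983 at 14 days and 1360 and 2270 at 6 weeks. Tnfrsf17 had 0 counts at 2 days. Jchain, a defining marker, stood at 0 to 0.434 CPM at 2 days, 4.5 to 5.18 at 7 days, 9.81 to 20.4 at 14 days and 50.3 to 160 at 6 weeks. These levels lie beside those of Derl3, Sdf2l1, Creld2, Pdia4 and Xbp1, and their part in them was not tested. In bulk RNA, fewer cells of a type and less RNA per cell cannot be told apart. At 7 days relative to 6 weeks 4 of the 10 tested plasma markers were lower and 1 was higher (26.6% and 24.5% of all genes). In that comparison Derl3 stood at -1.16 ± 0.33 (adjusted p = 0.0118), and Xbp1 at -0.44 ± 0.18 (adjusted p = 0.0535). Sdf2l1, Creld2 and Pdia4 stood at -0.23, -0.17 and 0.05, and did not pass.

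Other cell types also changed in their markers. Monocyte and macrophage markers (10 genes) summed to between 813 and 1140 CPM at 2 days and 3890 to 4170 at 6 weeks, with 8 of 10 lower at 2 days (19.7% of all genes). Mast cell markers (8 genes) summed to between 3870 and 6360 CPM at 2 days, 613 and 820 at 7 days, 1020 and 1100 at 14 days and 1420 and 1640 at 6 weeks. Relative to 6 weeks, 7 were higher and 0 lower at 2 days, with a median log2 fold change of 9.25 (20.7% and 19.7% of all genes). At 7 days 6 were higher and 1 lower, with a median of 3.49 (24.5% and 26.6% of all genes), although their sum was below that of 6 weeks. Erythroid markers (9 genes) summed to between 2540 and 4370 CPM at 7 days and to at most 628 at the others. Granulocyte progenitor markers (8 genes, Mpo and Elane among them) summed to between 470 and 637 CPM at 2 days, 706 and 859 at 7 days, 321 and 371 at 14 days and 232 and 402 at 6 weeks. Of these 8, 4 were higher at 2 days and 6 at 7 days than at 6 weeks (20.7% and 24.5% of all genes), with 0 lower at either age. B cell markers (6 genes) summed to between 238 and 313 CPM at 2 days and 388 to 500 at 6 weeks. In library 1 at 14 days the erythroid, plasma and B cell sums were 54, 438 and 140 CPM, each the lowest of its age. The part of these cells in the members' levels was not tested.

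Of 117 other genes of the ER and stress pathways, 115 passed the filter. At 2 days 22 were higher and 27 lower than at 6 weeks (20.7% and 19.7% of all genes), at 7 days 26 and 30 (24.5% and 26.6%), and at 14 days 1 and 9 (9.68% and 9.26%). The counts at 2 and 7 days are near the shares over all genes. Between younger ages, 26 rose and 25 fell from 2 to 7 days (22.9% and 25.8% of all genes), 22 rose and 30 fell from 7 to 14 days (24% and 21.9%), and 11 were higher and 21 lower at 14 than at 2 days (12.8% and 12.3%). Of 18 further ER chaperones and exchange factors, 1 was higher and 6 lower at 2 days than at 6 weeks (20.7% and 19.7% of all genes). Dnajb14, a membrane cochaperone of Hsp70, was among these, with 15.2 ± 0.262 CPM at 2 days and 43.6 ± 5.29 at 6 weeks (-1.52 ± 0.11, adjusted p = 8.39e-07). Cnpy3, a partner of Grp94 for Toll-like receptors, was lowest at 7 days, with 53.4 ± 1.67 against 110 ± 8.97 CPM at 6 weeks (-1.04 ± 0.1, adjusted p = 8.02e-06), the age at which Hsp90b1 was highest.

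Of 12 other oxidative folding genes, 2 were higher and 5 lower at 2 days than at 6 weeks (20.7% and 19.7% of all genes). Ero1l, the oxidase that recharges disulphide isomerases, rose from 98.2 ± 12.3 CPM at 2 days to 230 ± 26 at 7 days (1.23 ± 0.14, adjusted p = 2.77e-05), as did Pdia4 and Pdia6. Qsox1, a secreted sulphydryl oxidase, went the other way, from 377 ± 29.8 to 160 ± 30 CPM (-1.24 ± 0.15, adjusted p = 4.1e-05). Of 20 other ERAD genes, 4 were higher and 8 lower at 7 days than at 6 weeks (24.5% and 26.6% of all genes). The lectins Os9 (-1.07 ± 0.11, adjusted p = 1.02e-05) and Edem2 (-1.19 ± 0.14, adjusted p = 2.63e-05) were lower at 7 days, in the direction of Herpud1, Sel1l and Derl1.

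Of 28 other integrated stress response genes tested, 15 were higher and 5 lower at 7 days than at 6 weeks (24.5% and 26.6% of all genes), with a median log2 fold change of 0.42. From 7 to 14 days 4 rose and 15 fell (24% and 21.9% of all genes), with a median of -0.42. Among the 4 listed targets Asns and Trib3 were higher at 7 days and fell to 14 days, while Chac1 and Ppp1r15a were lower at 7 days. Atf5, a factor related to Atf4, had 42.2 ± 4.62 CPM at 7 days and 10.3 ± 0.246 at 6 weeks (2.04 ± 0.16, adjusted p = 1.71e-06). Slc7a5, an amino acid transporter, was highest at 2 days, with 87.4 ± 31.7 against 13.3 ± 1.6 CPM at 6 weeks (2.72 ± 0.23, adjusted p = 2.99e-06). Of 14 other sensors and factors tested, 1 was higher and 7 lower at 7 days than at 6 weeks (24.5% and 26.6% of all genes). Map3k5, a kinase downstream of IRE1, was among the lower (-1.07 ± 0.16, adjusted p = 0.000168), and Creb3l1, a membrane-bound factor related to ATF6, was higher at 2 days (2.24 ± 0.24, adjusted p = 1.55e-05). Of 23 other genes of the translocon, signal peptidase and glycan transfer, 3 were higher and 4 lower at 2 days than at 6 weeks (20.7% and 19.7% of all genes). From 2 to 7 days 7 rose and 2 fell (22.9% and 25.8% of all genes), Srprb (0.97 ± 0.17, adjusted p = 0.000555) and Spcs2 (0.56 ± 0.09, adjusted p = 0.000401) among those that rose.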

How the data were processed

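Polyadenylated RNA of Ly6G+ spleen cells was sequenced after Trizol extraction and random-hexamer priming, per the labels' protocols. The authors deposited gene counts, as whole numbers, in 1 table with 12 library columns. The submitters' processing notes name RSEM 1.2.3, mm10 and DESeq2, with no role for each. RSEM gives estimates, so the deposited counts may be rounded estimates. Whether strand was used is not given in the sources used here. Of 38887 Ensembl identifiers, 37570 were given a symbol, position and exon length from GENCODE M21 (GRCm38, the assembly of mm10). The 1317 others stayed in the totals of 34495767 to 38795913 counts. At that depth the spread between libraries limits precision more than counting for nearly all members.

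Groups are the ages given in the labels. Counts were scaled by trimmed mean of M-values and filtered with filterByExpr (minimum count 10). They were tested with edgeR 4.0.16 in R 4.3.3 (glmQLFit and glmQLFTest), in 1 model over 12 libraries with age as the only term. Benjamini-Hochberg adjustment covered all 15494 genes, with a threshold of 0.05, for 6 pairs of ages and jointly. SE is the absolute log2 fold change over the square root of F. RPKM is CPM per kilobase of merged exons. The procedure was tested on simulated counts. Promoter windows are RefSeq's on GRCm38.p6. They cover 250 bases before to 50 after the start and were at hand for 30 members, not for Atf6, Manf, Derl1 and Hyou1.

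Alternatives were DESeq2 size factors, library totals alone, no filter, a stricter filter (5 CPM in 3 libraries), DESeq2 1.42.0, limma-voom (limma 3.58.1), the 2 ages alone, a replicate block, each library left out and, added after seeing the data, 2 libraries left out together. Values in every library are given for the sensors and factors, for Hspa5, and for the 3 largest rises and falls among called members without overlap in each pair of ages. Of each other pathway list the 2 genes with the smallest joint p are named. The members and lists were chosen with earlier results of these data known.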

Additional observations from a re-analysis of the deposited data

How the results depend on the processing

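Member counts kept within 1.5 times under DESeq2 size factors, DESeq2, limma-voom, no filter and the stricter filter. Of 204 member values (34 genes in 6 pairs of ages), 104 passed the test, and over 21 alternatives 4278 values were computed, of which 126 lost a call, 121 gained one and 4 changed direction with a call. All 4 were Atf4 at 14 days, without library 1 at 14 days (-0.5 against 7 days, -0.46 against 2 days) and with library 2 at 2 days also left out (-0.52 and -0.47); over all single libraries left out, its value at 14 versus 2 days ran from -0.46 to 0.31 and at 14 versus 7 days from -0.5 to 0.25. With library totals alone 7 members, not 12, were lower at 7 days than at 6 weeks. A fit of the 2 ages alone, which has fewer libraries, gave 1 member higher and 1 lower at 14 than at 2 days. Without library 2 at 2 days and library 1 at 14 days, 5 members were higher at 2 days than at 6 weeks, and 17 were higher and 5 lower at 14 than at 2 days; the cause was not tested. With at most 1 mismatch the ERSE was in 15 and the CARE in 8 members.

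With 1 library left out at a time, the joint test called 26 to 30 members. Members higher and lower were 2 to 3 and 16 to 23 (2 days versus 6 weeks), 5 to 7 and 9 to 14 (7 days versus 6 weeks), 2 to 3 and 8 to 15 (14 days versus 6 weeks), 13 to 17 and 6 to 7 (7 versus 2 days), 6 to 9 and 11 to 12 (14 versus 7 days) and 4 to 14 and 1 to 3 (14 versus 2 days). The count of all genes at 14 days versus 6 weeks went from 2934 to between 1677 and 4685, so the background share moved with it.

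Replicate numbers did not pair the libraries across all ages. Of 18 same-numbered pairs 4 had a correlation of deviations over 0.1, with r from -0.394 to 0.37. Of 12 libraries 5 correlated best with their own number. Between 2 and 7 days, each 2-day library did correlate best with the 7-day library of its number (r of 0.344, 0.37 and 0.122). Library 3 at 7 days, though, correlated better with library 1 at 2 days (0.151). With a replicate block the counts higher and lower were 2 and 19, 6 and 11, 3 and 10, 14 and 6, 7 and 11, and 8 and 2 in the order above, and the joint test called 27. Depth limits only the weakest members, Derl3 and Trib3.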
